A study of Mus musculus with 2 samples.

Results

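The 10 core circadian clock genes *Arntl*, *Clock*, *Npas2*, *Per1*, *Per2*, *Per3*, *Cry1*, *Cry2*, *Nr1d1* and *Nr1d2* were followed in the liver by their symbols, each of which is listed 1 time among the 53342 rows of each deposited library. The liver mRNA of 1 control sample and 1 iFIRKO sample of male mice was compared. The iFIRKO mice carry Adipoq-CreERT2, a Cre recombinase that tamoxifen activates and that the adiponectin promoter expresses in adipocytes, together with Insr flox/flox alleles of the insulin receptor gene. Control mice are labelled WT, whereas the methods give them as IR flox/flox. Both groups received 100 mg/kg tamoxifen on 5 days from the age of 7 weeks, and the liver was taken on day 3 after the last dose. The liver itself is not a target of this Cre, and *Insr*, which its cells retain, had 4246 normalized reads in control against 3692 in iFIRKO. The number of mice behind each library is not stated. The time of day at which the liver was taken is not given in the sources used here, and with 1 library for each genotype, time of day, individual mouse and genotype cannot be told apart for any value reported for these rhythmic genes.

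The mammalian clock is a transcriptional feedback loop that runs in nearly every cell. ARNTL, also called BMAL1, pairs with CLOCK or with its relative NPAS2 and activates genes through E-box sequences. Among these genes are the Per and Cry genes, whose proteins return to the nucleus and repress the activators, and Nr1d1 and Nr1d2, which encode the nuclear receptors REV-ERBα and REV-ERBβ that repress *Arntl* at ROR response elements. A further arm acts through D-box sequences, at which DBP, TEF and HLF activate and NFIL3 represses. In the liver the levels of most of these mRNAs rise and fall over the day, in response both to the central pacemaker and to feeding, and they time much of hepatic metabolism.

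The promoter letters that these regulators recognize are shown for *Per3* and *Per1*, the members that differed most between the libraries, for *Ciart*, a clock repressor outside the members, and for *Cry1*, whose window holds both E-box forms. Windows from 250 bases before to 50 bases after an annotated start were taken from RefSeq (GRCm38.p6), and capitals mark matches to the E-box CACGTG, its variant CACGTT (which appears as AACGTG when read on the other strand) or the D-box TTATGTAA. The *Per3* stretch lies on the reverse strand at chr4:151044791-151044895, that of *Per1* on the forward strand at chr11:69098758-69098813, that of *Cry1* on the reverse strand at chr10:85185084-85185158, and that of *Ciart* on the reverse strand at chr3:95882242-95882369.
Per3: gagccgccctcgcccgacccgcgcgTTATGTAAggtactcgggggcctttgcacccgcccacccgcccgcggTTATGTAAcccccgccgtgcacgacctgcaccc
Per1: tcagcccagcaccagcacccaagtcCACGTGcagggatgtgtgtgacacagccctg
Cry1: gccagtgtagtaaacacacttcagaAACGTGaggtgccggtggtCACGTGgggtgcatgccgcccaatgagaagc
Ciart: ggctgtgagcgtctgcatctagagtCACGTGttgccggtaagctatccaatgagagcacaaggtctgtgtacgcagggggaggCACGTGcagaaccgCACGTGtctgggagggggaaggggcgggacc
A single ROR element core, TAGGTCA, was found in *Arntl*, at positions 31 to 37 after the second listed start (forward strand, chr7:113207531-113207557), and this is the element that REV-ERB and ROR proteins are known to share.
Arntl: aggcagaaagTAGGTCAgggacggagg

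Among the 10 members only *Per3* passed the fold limit. Its level was lower in iFIRKO, while its paralogs *Per1* and *Per2* stood above control by less than the limit, and *Arntl*, *Cry1*, *Cry2*, *Nr1d1* and *Nr1d2* each stood somewhat below it. A normalized read is the deposited scaled read count after return from the log2 scale, and a CPM of 1 stands for 41.8 normalized reads. A gene was called when its level, with a pseudocount of 4.18 normalized reads, differed more than 1.5-fold between the libraries, and it was tested when it reached a CPM of 1 in 1 or both libraries. All 10 members were tested, with 0 called higher and 1 called lower, where 4.46% of the 13400 tested genes were called higher and 7.28% were called lower. Of the 9 members whose higher value reached a CPM of 10, 0 were called in either direction, and among the 8380 genes at that level 2.42% were called higher and 3.54% lower. The median log2 fold change of the 10 members was -0.23, and that of all 13400 tested genes was 0.01. These counts are close to the background, and the description that follows rests on single genes and their counting intervals.

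Brackets of error given here are 95% intervals of the log2 fold change, iFIRKO over control, computed exactly on rounded estimates of read pairs. They cover counting error only, and say nothing about the spread between mice. On that basis 7 of the 10 intervals excluded 0, with 2 above it and 5 below it. The share of all tested genes whose interval excluded 0 was not computed, so this count is not set against a background.

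**Figure D1:**
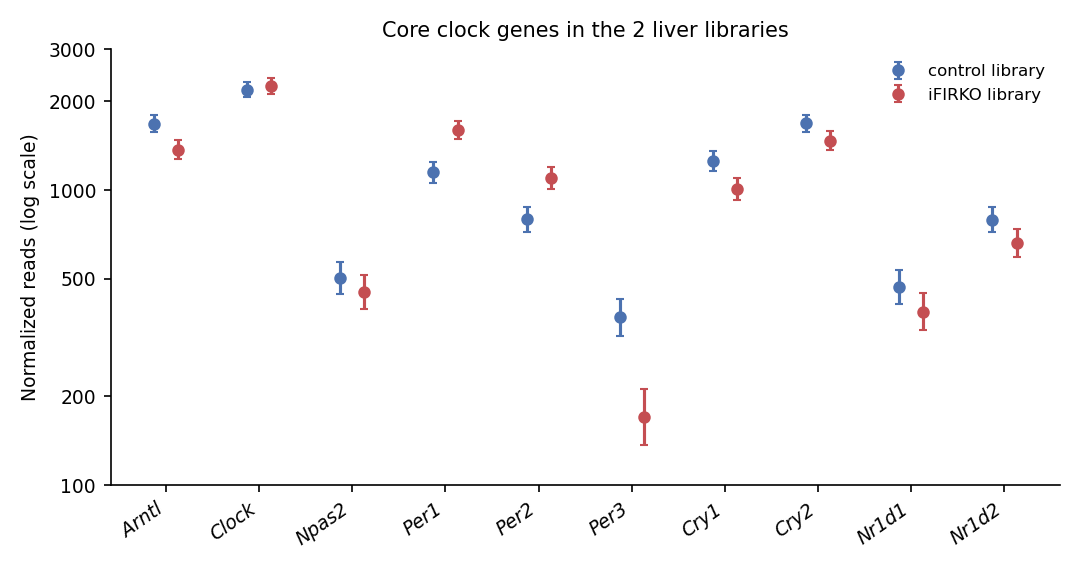
Normalized reads of each core clock gene (log scale) in the control library (blue) and the iFIRKO library (red). Bars are 95% exact Poisson intervals on the estimated read pairs. *Per3* has 370.9 and 170.2 normalized reads, *Per1* and *Per2* lie above control, and the bars of *Clock*, *Npas2*, *Cry2*, *Nr1d1* and *Nr1d2* overlap between the libraries.

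The activators were examined first. *Arntl* (chr7:113207465-113314126, forward strand), the obligate partner of the activating dimer, had 1679.9 normalized reads in control against 1372 in iFIRKO (log2 fold change -0.29, interval -0.44 to -0.14). *Clock* (chr5:76209868-76304792, reverse strand), which encodes its DNA-binding partner, had 2190.2 and 2252 normalized reads (log2 fold change 0.04, interval -0.08 to 0.16). *Npas2* (chr1:39193731-39363236, forward strand), which can stand in for *Clock*, had 506 and 453 normalized reads (log2 fold change -0.16, interval -0.42 to 0.11). Thus *Arntl* was below control by more than counting error, whereas for *Clock* and *Npas2* no difference was detectable at this depth. The difference between the log2 fold changes of *Npas2* and *Clock* was -0.20, and its interval of -0.49 to 0.10 included 0.

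The period genes encode the rate-limiting repressors of the loop and their values lay the farthest apart among the members. *Per1* (chr11:69095217-69109960, forward strand), which also responds acutely to glucocorticoid and cAMP signals, had 1149 normalized reads in control against 1602 in iFIRKO. This is a fold of 1.39 (log2 fold change 0.48), and the interval of 0.32 to 0.64 spans the limit, which is 0.58 on the log2 scale. *Per2* (chr1:91415982-91459324, reverse strand), whose loss disturbs rhythms in mice, had 798 and 1099.8 normalized reads, a fold of 1.38 (log2 fold change 0.46, interval 0.28 to 0.65). Both were thus higher in iFIRKO by more than counting error. Their values lay below the limit, but both intervals span it. Of all tested genes, 6.53% had a higher log2 fold change than *Per1* and 6.93% a higher one than *Per2*.

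*Per3* (chr4:151003652-151044665, reverse strand), the member least needed for the core rhythm, went the other way. It had 370.9 normalized reads in control against 170.2 in iFIRKO, a level 2.15-fold lower in iFIRKO. The log2 fold change was -1.10, with an interval from -1.51 to -0.74 that lies wholly past the limit, and it ranked 194 from the lowest among the 13400 tested genes. The log2 fold change of *Per3* was lower than that of *Per1* by a difference of -1.60 (interval -2.02 to -1.19) and lower than that of *Per2* by a difference of -1.59 (interval -2.01 to -1.16). Between *Per1* and *Per2* the difference was 0.02, with an interval from -0.23 to 0.26. Such differences between genes were taken without the pseudocount, and they do not depend on the scaling between libraries. The ratio of *Per1* to *Per2* normalized reads was 1.44 in control and 1.46 in iFIRKO, whereas that of *Per3* to *Per2* was 0.465 in control and 0.155 in iFIRKO.

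Per kilobase of the principal annotated transcript, the levels of the Per genes summed to 445 normalized reads per kilobase in control and 560.0 in iFIRKO. *Per3* made up 13.9% of this sum in control and 5.07% in iFIRKO. The share of *Per1* was 55.3% and 61.3%, and that of *Per2* was 30.8% and 33.7%. The Per family was therefore dominated by *Per1* in both libraries, and its total stood above control although its least abundant member stood below control.

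The cryptochromes bind PER proteins and are the stronger repressors of the ARNTL and CLOCK dimer. *Cry1* (chr10:85131700-85185064, reverse strand) had 1257 normalized reads in control against 1009.7 in iFIRKO (log2 fold change -0.32, interval -0.49 to -0.14). *Cry2* (chr2:92403646-92434043, reverse strand) had 1684 and 1469 normalized reads (log2 fold change -0.20, interval -0.34 to -0.05). Both were below control beyond counting error, and neither reached the limit. The difference in log2 fold change between *Cry1* and *Cry2* was -0.12, with an interval from -0.34 to 0.11, so that the ratio of the cryptochromes was not distinguishable between the libraries. Summed over the pair, normalized reads were 2942 in control and 2479 in iFIRKO, a log2 ratio of -0.25 (interval -0.36 to -0.14), whereas the sum over the Per genes had a log2 ratio of 0.31 (interval 0.20 to 0.42).

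The REV-ERB genes link the clock to lipid and bile acid metabolism in the liver. *Nr1d1* (chr11:98767932-98775333, reverse strand) had 470.0 normalized reads in control against 388 in iFIRKO (log2 fold change -0.28, interval -0.56 to 0.00), whose upper end of 0.0029 lies just above 0. *Nr1d2* (chr14:18204054-18239127, reverse strand) had 795 and 662 normalized reads (log2 fold change -0.26, interval -0.48 to -0.05). The log2 fold changes of the pair differed by -0.01, with an interval from -0.37 to 0.34. In the GENCODE M21 annotation, exons of *Nr1d1* share 263 bases with exons of the thyroid hormone receptor gene *Thra* on the opposite strand. The libraries were stranded, but whether the counting used strand is not stated, so reads in that overlap are uncertain. *Thra* itself had 555 and 505 normalized reads, a log2 fold change of -0.14. *Arntl* and *Cry2* share 33 and 295 exon bases with antisense RNAs that are listed at 0 in both libraries.

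*Arntl* and its repressor genes usually peak at opposite times of day, so their ratio within a library was examined. The ratio of *Arntl* to *Nr1d1* normalized reads was 3.57 in control and 3.54 in iFIRKO, a log2 difference of -0.01 with an interval from -0.33 to 0.31. By contrast, the ratio of *Arntl* to *Per2* was 2.11 in control and 1.25 in iFIRKO, a log2 difference of -0.75 with an interval from -0.996 to -0.51. The balance between *Arntl* and *Per2* thus differed between the libraries by more than counting error, while no difference between *Arntl* and *Nr1d1* was detectable. This does not extend to every repressor gene. The log2 fold change of *Per3*, -1.10, lay below the -0.29 of *Arntl*, and that of *Cry1*, -0.32, lay close to it. Ratios of *Arntl* to *Per3* or *Cry1* were not computed.

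**Figure D2:**
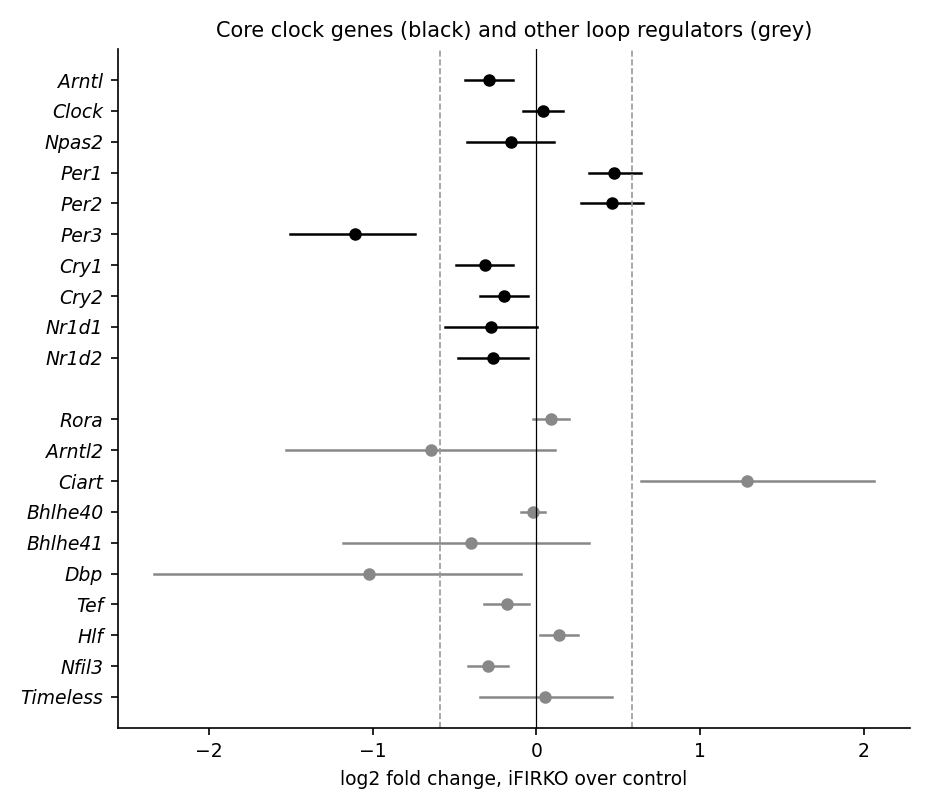
Log2 fold change, iFIRKO over control, of the 10 core clock genes (black) and of the 10 tested genes of the list of other loop regulators (grey), with 95% exact counting intervals as horizontal bars and dashed lines at the 1.5-fold limit. *Per3* (-1.10) lies past the lower limit with its whole interval, *Ciart* (1.29) past the upper one, and the wide bars of *Dbp* and *Arntl2* reflect few read pairs.

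Levels of different members can be compared only per length. In both libraries *Arntl* was the most abundant member per kilobase of principal transcript, with 564 normalized reads per kilobase in control and 461 in iFIRKO. *Per3* was the least abundant, with 61.8 and 28.4 normalized reads per kilobase. In control the order from the highest was *Arntl*, *Cry2*, *Cry1*, *Per1*, *Clock*, *Nr1d1*, *Nr1d2*, *Per2*, *Npas2* and *Per3*. The counting intervals of *Cry2* and *Cry1*, of *Per1* and *Clock*, of *Nr1d1* and *Nr1d2*, and of *Per2* and *Npas2* overlapped in that order. *Per1* stood at rank 4 in control and rank 3 in iFIRKO, and *Per2* at rank 8 and rank 6. In iFIRKO the neighbours *Cry2* and *Per1*, *Per1* and *Cry1*, and *Nr1d1* and *Nr1d2* overlapped. These levels depend on the transcript chosen, and the principal transcript of *Clock*, at 9744 bases, is much longer than that of *Arntl* at 2976.

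**Figure D3:**
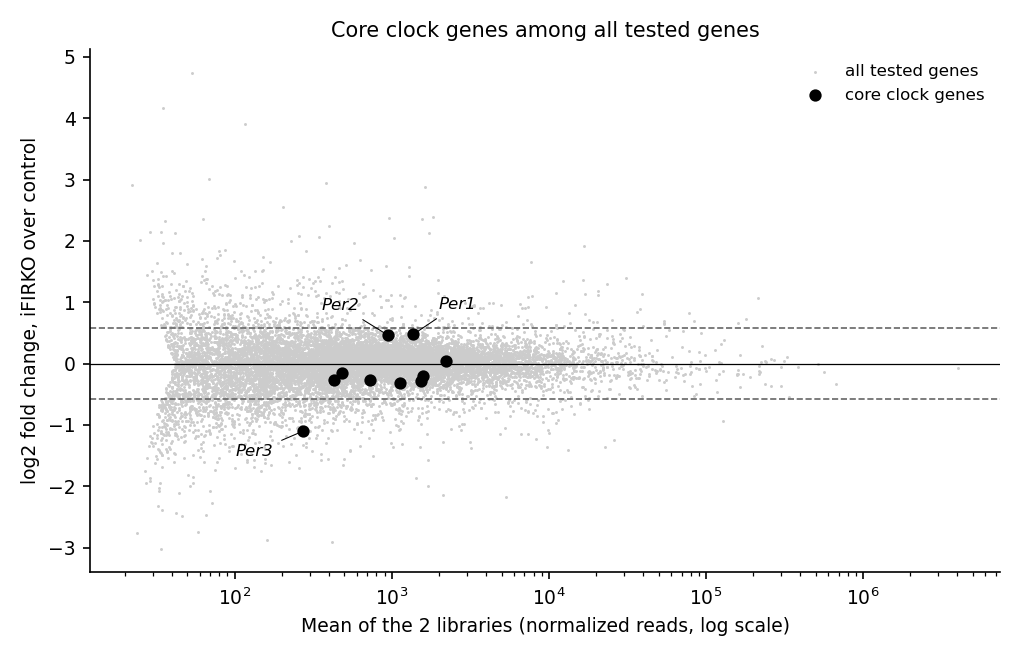
Log2 fold change, iFIRKO over control, against the mean normalized reads of the 2 libraries (log scale) for all 13400 tested genes (grey) and the core clock genes (black), with dashed lines at the 1.5-fold limit. The members sit in the middle of the expression range, and only *Per3* lies past a line.

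The other transcription regulators of the loop gave a median log2 fold change of -0.10 over 10 tested genes of 11. Of these, 1 was called higher and 2 lower, where 4.46% of all tested genes were called higher and 7.28% lower. *Rorb* was listed at 0 in both libraries. *Ciart*, also known as Chrono, encodes a repressor of the ARNTL and CLOCK dimer. It had 48.9 normalized reads in control against 125.4 in iFIRKO (log2 fold change 1.29, interval 0.64 to 2.06). *Dbp*, the D-box activator and a widely used readout of the liver clock, had 49.2 and 22.1 normalized reads (log2 fold change -1.02, interval -2.34 to -0.09). *Arntl2*, the paralog of *Arntl*, had 71.9 and 44.6 normalized reads (log2 fold change -0.64, interval -1.53 to 0.11). These 3 genes were scarce, with between 11.0 and 62.3 estimated read pairs in a library, and for *Arntl2* no difference was detectable. *Dbp* reached a CPM of 1 only in control, at 1.18 against 0.53 in iFIRKO. The minimum thus admitted *Dbp* through the library where it was higher, and its place among the genes called lower carries little weight.

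The abundant regulators of the same list stayed inside the limit. *Bhlhe40*, which encodes the E-box repressor DEC1, had 6228 normalized reads in control against 6135 in iFIRKO. *Rora*, which encodes an activator that competes with REV-ERB proteins for ROR elements, had 2664 and 2834 normalized reads (log2 fold change 0.09, interval -0.02 to 0.20). The D-box repressor gene *Nfil3* had 2489.8 and 2031 normalized reads (log2 fold change -0.29, interval -0.41 to -0.17). The D-box activators *Tef* and *Hlf*, named here after their values were seen, also stayed inside the limit, with log2 fold changes of -0.18 and 0.14. Per kilobase of transcript, *Dbp* had 26.8 normalized reads in control, against 430.0 for *Tef* and 399 for *Hlf*. *Dbp* was therefore a minor part of the D-box activator mRNA in both libraries. The ratio of *Arntl* to *Dbp* was 34.1 in control and 62.0 in iFIRKO, but the interval of the log2 difference, from -0.21 to 2.06, includes 0. That difference was 0.86 without a pseudocount and 0.23 with a pseudocount of a CPM of 1, under which the log2 fold change of *Dbp* was -0.51 and no longer past the limit. The remaining tested genes of the list had log2 fold changes of -0.40 for *Bhlhe41* and 0.05 for *Timeless*, and both intervals included 0.

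Of the clock protein modifiers and cofactors, the kinases, ubiquitin ligases and chromatin enzymes that set the stability and activity of the clock proteins, none of the 27 tested genes was called in either direction. Their log2 fold changes ran from -0.41 to 0.39, with a median of 0.04. *Huwe1*, a ubiquitin ligase that acts on REV-ERBα, had 6478 normalized reads in control against 7002 in iFIRKO. *Csnk2a1*, a catalytic subunit of casein kinase 2, had 4143 and 4070.1, and *Nono*, a PER-binding cofactor, had 4144 and 3871.

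Of 14 tested genes that the liver clock is known to drive, 4 were called higher and 1 lower. Over all tested genes the shares were 4.46% and 7.28%. The median log2 fold change of the list was 0.19. Because the list was chosen with earlier results of these data known, its counts do not test it against that background. *Elovl3*, a fatty acid elongase gene, had 305 normalized reads in control against 1606 in iFIRKO (log2 fold change 2.38, interval 2.15 to 2.66). *Noct*, which encodes the rhythmic phosphatase nocturnin, had 784 and 1659 normalized reads (log2 fold change 1.08, interval 0.90 to 1.26). *Alas1*, the rate-limiting enzyme of heme synthesis, had 9983 and 19261 normalized reads (log2 fold change 0.95, interval 0.90 to 0.998). The liver glycogen synthase gene *Gys2* had a log2 fold change of 0.78. *Cyp7a1*, the rate-limiting enzyme of bile acid synthesis, was the gene called lower, with 6698 and 4351 normalized reads and a log2 fold change of -0.62 (interval -0.70 to -0.54). Most of these genes are also known to respond to feeding and hormones. Inside the limit were the abundant *Insig2*, *Cyp2a5* and *Por*, at log2 fold changes of 0.27, -0.13 and -0.44.

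Signals that set the liver clock were read from a pair of further lists. Of 8 glucocorticoid-induced genes none was called, and the median log2 fold change was -0.02. *Pck1*, *Tat* and *Tsc22d3*, the most abundant of them, had log2 fold changes of -0.46, -0.04 and 0.33. The highest in that list, named after its values were seen, was *Dusp1*, which encodes a phosphatase of MAP kinases, with 2592 and 3694 normalized reads (log2 fold change 0.51, interval 0.41 to 0.62). Of 8 temperature-responsive genes, *Hspa1a*, a heat shock protein gene with a near-identical copy that could share reads, was called higher, with 147.5 and 235.3 normalized reads and a log2 fold change of 0.66 (interval 0.25 to 1.12). That copy, *Hspa1b*, had 373 and 520 normalized reads and was not called (log2 fold change 0.48, interval 0.20 to 0.75). The lowest of the list was *Cirbp* (log2 fold change -0.41, interval -0.65 to -0.18). Both were named after their values were seen. The abundant *Hspa8*, *Hsp90aa1* and *Hsph1* had log2 fold changes of 0.22, 0.01 and -0.09, and the median of the list was 0.07. The median over all tested genes was 0.01. Within both lists the members went either way, with 4 glucocorticoid-induced genes above and 4 below 0 and 6 temperature-responsive genes above and 2 below, and the summed levels, in which the abundant genes weigh most, had log2 ratios of -0.26 and 0.16.

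**Figure D4:**
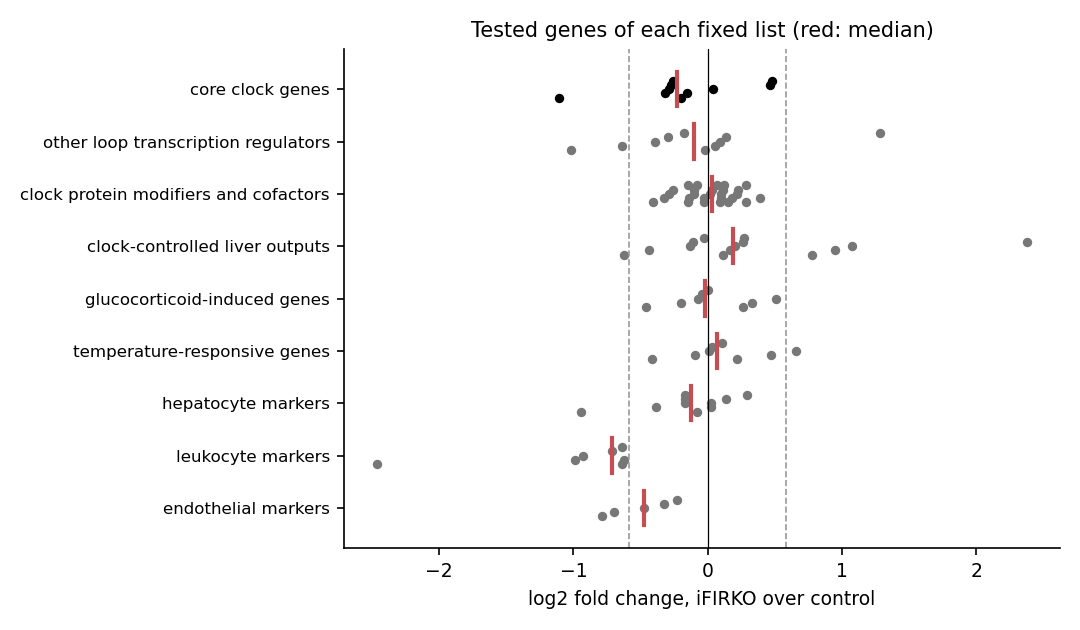
Log2 fold change, iFIRKO over control, of each tested gene of the core clock genes (black) and of the other lists (grey), with list medians in red and the 1.5-fold limit dashed. The modifiers and cofactors lie within the limit, while leukocyte markers lie below it.

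Clock genes are expressed in every cell type of the liver, so markers of these cells are given beside their values. Of 10 hepatocyte markers, 1 was called lower and 0 higher, their sum had a log2 ratio of -0.09, and *Alb* was the most abundant of them in both libraries. All 7 tested of 8 leukocyte markers were called lower. Of these, *Cd79a* was tested only through control, with a CPM of 2.71 against 0.41 in iFIRKO. With the minimum in both libraries, 6 were called lower. The summed level of the 8 markers was 21415 normalized reads in control against 13380.1 in iFIRKO, and none was at 0. Of 5 endothelial markers, 2 were called lower, with sums of 7598 and 5535 normalized reads and none at 0. Over all tested genes, 4.46% were called higher and 7.28% lower. The marker lists were chosen with earlier results of these data known, so their counts do not test them against that background. In bulk liver, fewer cells of a type and less RNA per cell cannot be told apart. The part of these differences in the values of the clock genes was not tested.

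Promoter letters were then compared with the values. RefSeq windows were found for 9 of the 10 members, 13 windows in all, and *Per2* had none in the table. The motifs searched on both strands were the E-box CACGTG and its variant, written CACGTT, the D-box in the forms TTATGTAA and also TTACGTAA, the ROR element core in the forms TAGGTCA and also TGGGTCA, and the cAMP response element TGACGTCA, and none of the matches found in the members overlapped another. Of the 9 genes, 6 held a match. The share of all genes or windows that hold any of these motifs was not computed, so this count has no background. The percentages given below are shares of windows for 1 motif each, and some members have more than 1 window. Among the 9 members with a window, *Per3* was the only one with a D-box, and *Per2* could not be searched. The *Per3* window held 2 of them, at positions -205 to -198 and -158 to -151 relative to the annotated start. TTATGTAA occurs in 0.938% of the 32851 RefSeq promoter windows. The E-box CACGTG, found in 7.15% of windows, was present in *Per1* at -166 to -161 and in *Cry1* at -60 to -55. The *Ciart* window printed above held 3. The variant CACGTT, found in 4.68% of windows, was present in *Cry1*, *Cry2* and *Nr1d1*. TAGGTCA, found in 2.61%, was present in *Arntl* alone among the 9 members with a window. *Clock*, *Npas2* and *Nr1d2* held none of these letters in this window, which says nothing of more distant elements. The motifs were not particular to the members, since 7 of the 10 other loop regulators with a window also held a match. Besides *Ciart*, CACGTG was present in *Bhlhe41* and *Tef* (log2 fold changes -0.40 and -0.18), TTATGTAA in *Timeless* (0.05) and TAGGTCA in *Nfil3* (-0.29). *Rorb* held the variant CACGTT and *Hlf* the cAMP response element. The E-box genes *Per1* and *Cry1* had log2 fold changes of opposite sign, 0.48 and -0.32. Among all tested genes with TTATGTAA in a window, *Per3* included, 1 of 71 was called higher and 9 were called lower, with a median log2 fold change of -0.03, where 4.46% of all tested genes were called higher and 7.28% lower. Whether these counts differ from that background was not tested. For CACGTG, 51 of 1145 tested genes were called higher and 72 lower, with a median of 0.00.

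**Figure D5:**
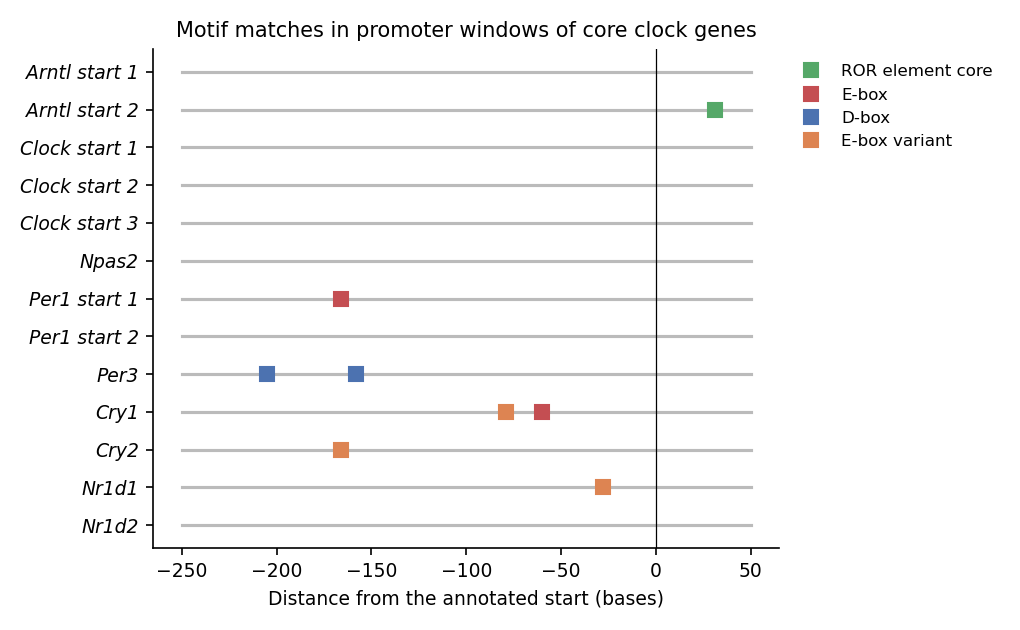
Position, in bases from the annotated start, of each match to a searched motif in the 13 promoter windows of 9 core clock genes. The paired D-boxes of *Per3* stand before the start, the E-boxes of *Per1* and *Cry1* lie at -166 and -60, and the ROR element core of *Arntl* lies after its second listed start.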

How the data were processed

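Stranded mRNA libraries of liver (TruSeq, NovaSeq) were compared, 1 for each genotype. The authors deposited a log2 normalized read count for every symbol, in which a scaled count of 1 or less appears as 0. The submitters' processing notes name mm10, and the aligner, counter and annotation are not given in the sources used here. After return to the linear scale, the commonest value between 1.5 and 2.5 was taken as 1 read pair (1.99 normalized reads in control, 2.01 in iFIRKO), which gave an estimated 42276584 and 41304952 reads. Of values under 40 pairs, 41.4% and 41.7% lay within 0.01 of a whole pair. The counting intervals use the estimated pairs rounded to whole pairs and share this limit, and no other count test was run on them. The mean library total of normalized reads set the CPM scale.

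Fold intervals were exact Clopper-Pearson intervals and differences used exact conditional odds ratios, both at 95%. No p-value was computed, since each genotype had 1 library. Positions and principal (APPRIS) transcripts came from GENCODE M21 (GRCm38), and promoter windows from RefSeq. Of 25 windows of members and other loop regulators, 22 had the bases after the start inside an annotated transcript of the gene, and the starts of *Cry2* and *Nr1d1* were among the others. Members and lists were chosen with earlier results of these data known. All members were named, with *Insr*, and in each other list the called genes and up to 3 others by level, while marker lists were summarized. A further loop regulator is not reported here and enters no count of its list. With 2 libraries no likeness of pattern between genes was computed. Fold calls and intervals were tested on libraries simulated as whole Poisson counts, the setting for which the intervals are built. That checks the computation and says nothing about their coverage on the deposited values. Alternatives were 10 other settings of pseudocount, minimum, scaling, fold and duplicate symbols. Scripts ran in Python 3.11.15 with scipy 1.17.1, numpy 2.4.6, matplotlib 3.10.9 and pandas 2.3.3.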

Additional observations from a re-analysis of the deposited data

How the results depend on the processing

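The count of 1 core clock gene lower and 0 higher was the same under all 10 alternatives, and the median of the members lay between -0.24 and -0.22. Each of the 100 values of single members under an alternative kept its sign and stayed within its counting interval, with *Per3* between -1.12 and -0.96. This was largely fixed in advance, since settings of the minimum, the fold or duplicate symbols cannot change a member's log2 fold change. The scalings moved all genes alike, by log2 factors of 0.0047, -0.0027 and 0.012. The 9 differences between genes cannot move with the scaling, and with a pseudocount of a CPM of 1 they kept their sign and stayed within their intervals, although that of *Arntl* and *Dbp* went from 0.86 to 0.23 and that of *Arntl* and *Nr1d1*, both close to 0, from -0.014 to -0.031. For *Nr1d1* and *Nr1d2* it went from -0.015 to -0.0041. Over all tested genes, 371 were higher and 576 lower with a pseudocount of a CPM of 1, 1960 and 2620 without a minimum, 288 and 440 with a minimum of a CPM of 5, and 209 and 267 with a fold above 2, where the number of genes tested or the limit itself differs. Among the other loop regulators the number lower was 0 with a pseudocount of a CPM of 1, 1 with the minimum in both libraries and 1 with a fold above 2, and with a minimum of a CPM of 5, which leaves out the scarce *Ciart*, *Dbp* and *Arntl2*, it was 0 higher and 0 lower with a median of 0.0164, where the median at the minimum used was -0.10. Temperature-responsive genes had 0 higher with a pseudocount of a CPM of 1. With a fold above 2 there were 2 higher and 0 lower outputs, 0 higher temperature-responsive genes, and 0 hepatocyte, 1 leukocyte and 0 endothelial marker lower. No paired analysis was possible because only 1 library represents each genotype, and for that reason none could be left out. Counting error limits genes near the minimum of 41.8 normalized reads.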
